A study of Mus musculus with 4 samples.

Results

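Securin, the product of Pttg1, and 9 other genes that set the time of anaphase were followed in mouse embryonic stem (ES) cells with and without Myh9, the gene of the non-muscle myosin IIA heavy chain. The 10 genes (Pttg1, Espl1, Cdc20, Ccnb1, Plk1, Bub1b, Mad2l1, Cdk1, Rad21 and Smc3) were found by name among 50600 rows of the deposited table, with 1 row each. Pttg1 was chosen by its large fall between WT and Myh9 KO in this same table, so its difference is given below as a description with no test. The other genes were picked for their function. RNA-seq libraries came from the OG2ES line, labelled as derived from the inner cell mass and grown in mouse ES medium with 2i, a pair of kinase inhibitors. There were 2 libraries from wild-type (WT) cells and 2 from Myh9 KO cells, with no further treatment. Whether the Myh9 KO cells were 1 clone or several is not given in the sources used here, so a trait of the edited line and an effect of Myh9 loss cannot be told apart. Whether the libraries came from separate cultures is not given either, so p-values measure only how far these libraries spread, and that spread may be technical.

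At anaphase, sister chromatids part because separase, a protease, cuts the cohesin ring that holds them together. Until then separase is held inactive, largely by securin and by cyclin B bound to Cdk1. The anaphase-promoting complex (APC/C), a ubiquitin ligase switched on by Cdc20, marks both securin and cyclin B for destruction, and the spindle assembly checkpoint blocks Cdc20 while any kinetochore lacks a microtubule. ES cells divide fast, with a short gap before DNA replication, and many genes of this machinery are transcribed mainly in late S phase, G2 and mitosis. Mice without Pttg1 are viable, since other controls of separase remain.

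The deposited values were whole numbers that summed to between 992098 and 992317 per library, so they were treated as normalized values of an unstated unit, not as read counts. The depth is unknown, and levels are not compared between genes because it is not stated whether the values account for gene length. Myh9 itself had values of 83 and 100 in WT against 9 and 9 in Myh9 KO, which goes with the labels. All 7 markers fixed for ES cells were detected, with sums of 9467 and 9700 in WT against 8243 and 8041 in Myh9 KO. Of these 7, Dppa5a and Sox2 fell and none rose, where 5.81% of all tested genes fell and 5.15% rose. The second fit described below called 1 of the 7 higher, which limma did not. The log2 fold changes of the 7 ran from -0.54 to 0.46 with a median of -0.05. Of 10 feeder fibroblast markers 7 were listed at 0 in every library, among them Col1a1 and Col3a1, and the list summed to 4 to 6 in WT and 5 to 7 in Myh9 KO. Of 5 trophectoderm markers Krt7, Elf5 and Hand1 were listed at 0, with sums of 20 to 22 in WT and 22 to 24 in Myh9 KO and 1 of 2 tested genes called higher by limma but 0 with the second fit described below, and of 4 endoderm markers Gata6, Foxa2 and Sox7 were listed at 0, with sums of 0 to 1.

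Pttg1, the gene of securin, had values of 137 and 125 in WT 1 and WT 2 and of 21 and 16 in Myh9 KO 1 and Myh9 KO 2. Both Myh9 KO libraries lay far below both WT libraries, and the transcript was still listed in each of them. The mean went from 131 to 18.5, which is 7.08 times lower, while replicates differed by 1.10 times within WT and 1.31 times within Myh9 KO. On the log2(value + 1) scale used for all fold changes here, the difference between Myh9 KO and WT was -2.77 (n = 2 libraries per group), a fold of 0.147. No error is attached to it, since the same values chose the gene. In bulk RNA, fewer cells that express a gene and less RNA per cell cannot be told apart.

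**Figure D1:**
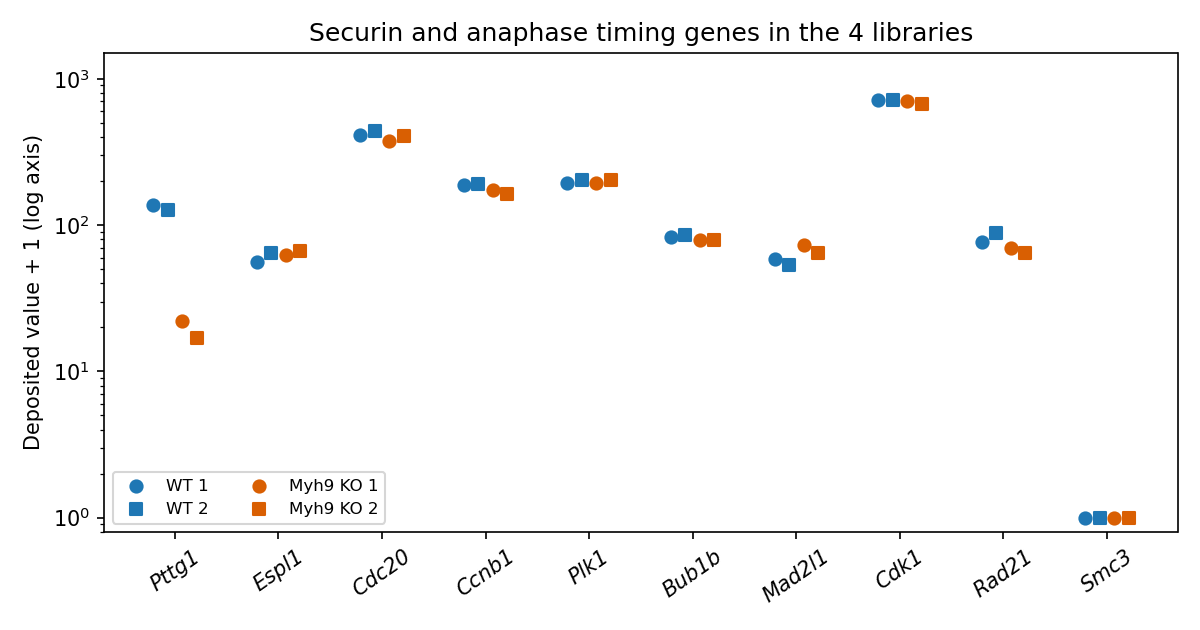
Deposited value plus 1 (log axis, unit not stated) of the 10 genes in each library, with blue for WT, orange for Myh9 KO, circles for replicate 1 and squares for replicate 2. Pttg1 is at 137 and 125 in WT against 21 and 16 in Myh9 KO, Smc3 is listed at 0 in all 4 libraries, and the other genes lie close together across groups.

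Pttg1 lies on mm10 chromosome 11, 43420250 to 43426251, on the minus strand (ENSMUSG00000020415), and no other gene of the GENCODE vM21 annotation overlaps it. Of its 2166 words of 50 bases none occurs in another annotated transcript. GENCODE lists 10 transcripts of Pttg1, of which 7 code for protein and run from 476 to 1674 bases. The table gives 1 value per gene, so a shift between these transcripts could not be seen. The GC content of Pttg1 transcripts is 47.3%, and the median log2 fold change of tested genes in the range 45.8% to 49.4% was -0.06. The 952 tested genes of chromosome 11 had a median of 0.

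Around Pttg1 no tested gene was called lower. Of the 3 nearest protein-coding genes on each side, Slu7, a splicing factor gene that starts 7493 bases away, had values of 5 and 7 in WT against 6 and 3 in Myh9 KO (log2 fold change -0.39 with standard error, SE, 0.40, adjusted p = 0.541 by limma). Ccnjl, a cyclin J-like gene 102533 bases away, had values of 2 and 3 in WT against 7 and 7 in Myh9 KO (log2 fold change 1.21 with SE 0.18, adjusted p = 0.0614 by limma, and 0.00604 with the second fit described below, which called it higher). C1qtnf2, Atp10b, Gm9972 and Gabrb2 were listed at 0 in every library.

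The genes with the profile most like that of Pttg1 are given as a description, from the same values that chose Pttg1. Likeness was the Euclidean distance between log2(value + 1) profiles, each centred on its own mean, over 6263 named genes whose mean value reached 10. The 5 nearest were Fetub, a secreted fetuin (27 and 27 in WT, 3 and 3 in Myh9 KO, distance 0.281), AU022751 (20 and 25, then 3 and 2, distance 0.313), the ribosomal protein paralog Rpl39l (235 and 266, then 30 and 29, distance 0.418), Myh9 itself (distance 0.58) and the carbonyl reductase gene Cbr3 (48 and 51, then 11 and 10, distance 0.675). None of the 5 shares chromosome 11 with Pttg1, and Fetub, Rpl39l and Cbr3 lie on chromosome 16. How many lower genes lie on chromosome 16 was not counted, so no link to it is drawn. Fetub, AU022751 and Myh9 reached the mean of 10 only through their WT values. The other tested members were 2.49 to 3.06 away. With 2 groups of 2 libraries, such a distance mostly repeats the size of the group difference.

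Of the 8 other members that could be tested, limma called 0 at an adjusted p under 0.05. Over all tested genes it called 7.17% higher and 7.96% lower. Of the 8, 2 (Bub1b and Ccnb1) had an unadjusted p under 0.05. The share of all tested genes under that unadjusted threshold was not counted, here or for the lists below. It is at least the 15.1% that limma called at an adjusted p under 0.05. Counts at the unadjusted threshold are therefore not read as a result. A second fit, called random decimals, adds a random number between 0 and 1 to every value before the log, so that equal whole numbers do not pass for equal measurements. In a simulated whole-number table with changes in a small share of genes, limma called more unchanged than changed genes. Nearly all genes called by both fits were changed ones, but many changed genes were missed, the more so the smaller the change. These shares depend on how many genes change and do not carry over to the deposited values. A limma call alone is still read with caution, and a gene that was not called may still differ. The words rose and fell are kept for genes that passed in both fits. Random decimals called 1 of the 8, Rad21, where it called 1245 of the 11231 tested genes higher and 1355 lower. Both fits together called 0 of the 8, where 11.0% of all tested genes were called by both (5.15% higher and 5.81% lower). The log2 fold changes of the 8 ran from -0.30 to 0.29 with a median of -0.07, beside a median of 0 over all genes tested. Myh9 KO lay below WT without overlap in 5 of the 8 and above it in 1, and the groups overlapped in 2. Over all tested genes 27.3% were lower and 26.2% higher without overlap, 53.5% in all. The share of the 8 that was lower without overlap was above that of all genes, and no set test was made of it. Equal whole numbers across groups count as overlap and are likelier at low values, so the shares are not fully alike.

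**Figure D2:**
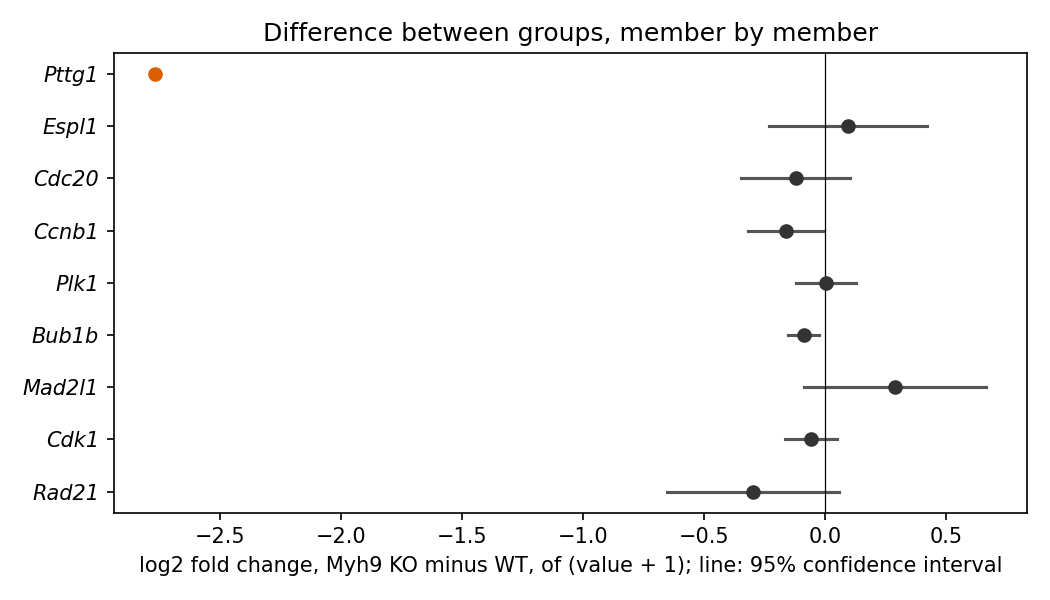
Log2 fold change between Myh9 KO and WT, in log2(value + 1), of the 9 tested members, with lines for the 95% confidence interval from the limma fit in all but Pttg1 (n = 2 libraries per group). Pttg1 stands at -2.77, and the other 8 lie between -0.30 and 0.29.

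Espl1, the gene of separase and so of the protease that securin binds, had values of 55 and 63 in WT against 61 and 65 in Myh9 KO. The groups overlapped, and the fold was 1.07 with a 95% interval from 0.852 to 1.34 (limma adjusted p = 0.523). With the GC content trend removed its log2 fold change went from 0.10 to 0.0083. Espl1 spans 102296293 to 102324356 on chromosome 15 and overlaps a processed pseudogene, Gm49480, on the other strand.

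Cdc20 (mm10 chromosome 4, 118432901 to 118437352), the activator through which the APC/C recognises securin, had values of 413 and 439 in WT against 376 and 408 in Myh9 KO. Both Myh9 KO libraries were below both WT libraries, and the gap of 5 units between the groups was smaller than the difference within either pair (fold 0.92, interval 0.787 to 1.08, limma adjusted p = 0.34). Fold changes also varied with GC content over all tested genes, with a median log2 fold change of -0.16 for the fifth of genes lowest in GC (31.9% to 45.8%) and 0.12 for the fifth highest (56.2% to 76.3%). In the same ranges of GC content, Myh9 KO 2 minus Myh9 KO 1 had medians of -0.15 and 0.092. A trend of nearly that size thus also lay between libraries of the same group. Whether the trend between groups goes with Myh9 or with the libraries was not tested. With the GC content trend removed, Cdc20 was called lower at a log2 fold change of -0.20 (limma adjusted p = 0.0301). Cdc20 overlaps Elovl1 on the other strand, and 10.6% of its 50-base words occur in other genes.

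Ccnb1 (chromosome 13, 100778650 to 100786570) and Cdk1 (chromosome 10, 69335146 to 69352938) encode cyclin B1 and its kinase, which drive entry into mitosis and also hold separase inactive. Ccnb1 had values of 186 and 191 in WT against 174 and 163 in Myh9 KO, lower without overlap (fold 0.894, interval 0.802 to 0.997, limma adjusted p = 0.144, and 0.0759 with random decimals). Its log2 fold change of -0.16 went to -0.031 with the GC content trend removed and to -0.035 with each chromosome's median removed (chromosome 13 had a median of -0.14). Of its 50-base words 23.4% occur in other genes, mostly pseudogenes such as Ccnb1-ps, so its value is less certain than the others. Cdk1 had values of 713 and 717 in WT against 703 and 671 in Myh9 KO, also lower without overlap but by a few percent (fold 0.961, interval 0.892 to 1.03, adjusted p = 0.33). With the GC content trend removed its log2 fold change went from -0.058 to -0.0086. None of its words occurs elsewhere.

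Plk1 (chromosome 7, 122159439 to 122169873), a kinase that helps to strip cohesin from chromosome arms and to mature the spindle poles, had the same values in both groups to within 1 unit, at 193 and 201 in WT against 194 and 201 in Myh9 KO. Its fold was 1.00, with an interval from 0.921 to 1.09 (limma adjusted p = 1). Among the tested members this was the nearest to no difference before removal of the GC content trend. With that trend removed its log2 fold change went from 0.0037 to -0.099 (limma adjusted p = 0.12). Espl1, Cdk1, Ccnb1 and Bub1b were then nearer to no difference. Of its words 10.4% occur in other genes.

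The upstream sequence of Espl1, Cdc20 and Plk1 is shown for 2 reasons. Before any removal of the GC content trend, neither fit called these anaphase genes in cells where Pttg1 was far lower. Such promoters are also known to carry short words linked to late cell cycle expression. These are CCAAT, bound by NF-Y, and TTTGAA, the core of the cell cycle homology region. The 120 bases before the RefSeq start site (GRCm38.p6) are given 5′ to 3′ on the strand of the gene, with either word in capitals (ATTGG and TTCAAA on the other strand). They span chr15:102296173-102296292 (plus strand) for Espl1, chr4:118437344-118437463 (minus strand) for Cdc20 and chr7:122159315-122159434 (plus strand) for Plk1.
Espl1: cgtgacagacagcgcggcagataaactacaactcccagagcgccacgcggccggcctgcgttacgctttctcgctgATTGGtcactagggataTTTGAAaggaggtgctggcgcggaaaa
Cdc20: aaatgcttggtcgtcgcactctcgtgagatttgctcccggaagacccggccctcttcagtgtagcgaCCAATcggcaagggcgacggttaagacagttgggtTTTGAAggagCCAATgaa
Plk1: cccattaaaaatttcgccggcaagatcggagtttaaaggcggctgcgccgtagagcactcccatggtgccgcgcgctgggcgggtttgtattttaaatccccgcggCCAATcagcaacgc

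Espl1 and Cdc20 hold both words in these bases, and Plk1 holds CCAAT alone. Over 250 bases upstream, 6 of 8 members with a usable RefSeq window hold CCAAT on either strand and 3 (Espl1, Cdc20 and Cdk1) hold TTTGAA, all 3 of them together with CCAAT. Of all 32851 RefSeq windows of the same length 33.8% hold CCAAT, 16.0% hold TTTGAA and 5.55% hold both. A match is a description of letters and not of binding. The last 9 bases shown for Cdc20 lie inside the gene as GENCODE draws it. The RefSeq window of Pttg1 is not shown: its start site, at 43425981, lies 270 bases inside the gene as GENCODE draws it, so the window covers transcribed sequence rather than the bases before the first exon. Rad21 had no entry.

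Bub1b (chromosome 2, 118598211 to 118641591) and Mad2l1 (chromosome 6, 66535390 to 66547220) encode BubR1 and Mad2, the checkpoint proteins that bind Cdc20 and keep it from activating the APC/C. Bub1b had values of 82 and 84 in WT against 78 and 78 in Myh9 KO, lower without overlap, with a gap of 4 units between the groups and of 2 units within WT (fold 0.941, interval 0.899 to 0.984, limma adjusted p = 0.101, and 0.355 with random decimals). With the GC content trend removed its log2 fold change went from -0.088 to -0.039. Mad2l1 had values of 58 and 52 in WT against 72 and 63 in Myh9 KO and was the only member above WT without overlap. Its fold was 1.22, with an interval from 0.942 to 1.59 (adjusted p = 0.206, and 0.0527 with random decimals). The 555 tested genes of chromosome 6 had a median log2 fold change of 0.45. With each chromosome's median removed its log2 fold change turned from 0.29 to -0.16 (adjusted p = 0.344), and with the GC content trend removed it was called higher at 0.49 (adjusted p = 0.0168). The part of the chromosome-wide difference in its value was not tested beyond this.

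Rad21 (chromosome 15, 51962605 to 51991760) encodes the cohesin subunit that separase cuts. Its values were 76 and 87 in WT against 69 and 63 in Myh9 KO, lower without overlap, with a gap of 7 units between the groups and of 11 units between the WT libraries. The log2 fold change was -0.30 (SE 0.10, fold interval 0.635 to 1.04, limma adjusted p = 0.184), and random decimals called it lower (adjusted p = 0.0378). That call was lost without WT 2 (adjusted p = 0.249) or without Myh9 KO 2 (0.111). Among the 8 members this was the lowest log2 fold change, and it was small beside that of Pttg1.

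Smc3 (chromosome 19, 53600398 to 53645833), a cohesin subunit that forms the hinged arms of the ring, was listed at 0 in all 4 libraries. Dividing cells need Smc3, so this value can be a failed estimate and does not show that the transcript was absent. Other cohesin genes had the same listing: Stag2, Nipbl, Pds5b, Esco1, Esco2 and Sgol2a, and the meiotic Smc1b and Rad21l, 8 of the 19 cohesin genes in the table. Smc1a, the partner of Smc3, had values of 4 and 3 in WT against 5 and 4 in Myh9 KO. Together with the lists below, 13 anaphase and cell cycle genes were listed at 0 throughout, also Cenpe, Cenpf, Knl1 and Ckap5. These 13 had a median GC content of 40.6% (38.2% to 43.5%) and a median length of merged exons of 8273 bases, beside 48.7% and 4363 bases in the 107 tested genes. Whether length or GC content set these zeros was not tested.

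The wider machinery was described by 7 lists of cell cycle genes. The deposited data hold 116 of their genes, of which 98 could be tested, and 2 rose and 3 fell by both fits, which is 5.10% beside 11.0% of all tested genes. By limma, counting these genes, 4 were higher and 6 lower (10.2% beside 15.1%). Random decimals called 1245 of all 11231 tested genes higher and 1355 lower. The counts in each list below are small, and none is read as a result about that list. The median log2 fold change of the 98 was 0, as over all tested genes, and the range ran from -0.79 to 1.09 (the extremes in genes with values of 2 or less). None of the 98 had a log2 fold change as low as that of Pttg1, which was chosen for its large fall.

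**Figure D3:**
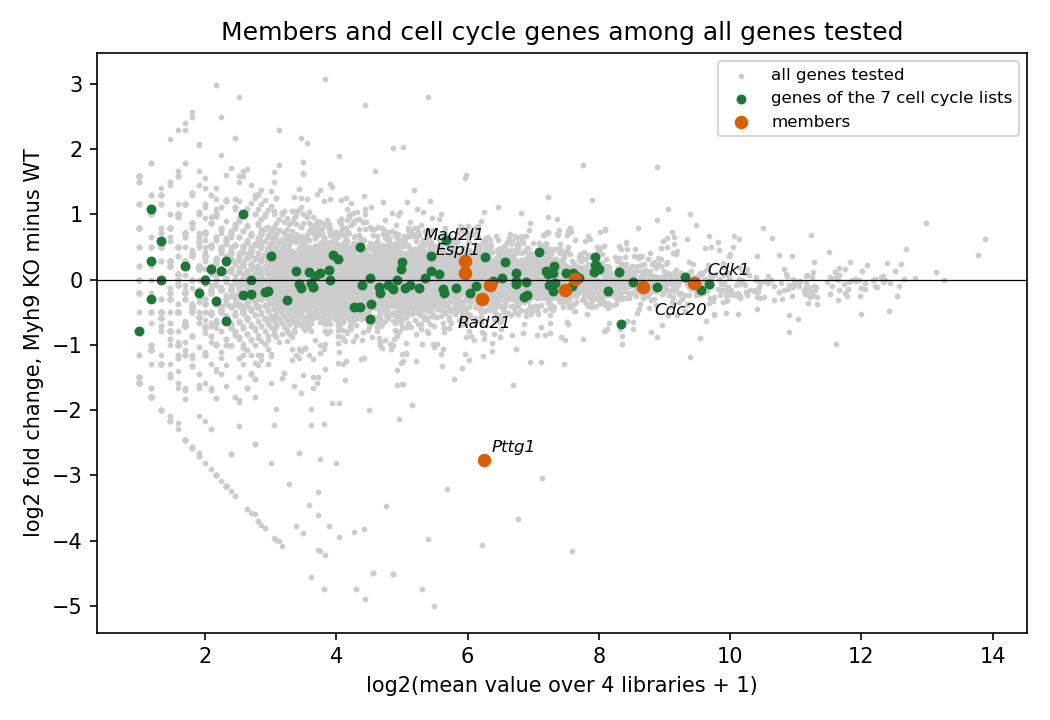
Log2 fold change between Myh9 KO and WT against log2 of the mean value plus 1 for 11231 tested genes (grey), 98 genes of the 7 cell cycle lists (green) and the 9 tested members (orange). Pttg1 at -2.77 lies apart from the other members and the list genes, which spread around 0.

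Of 10 tested genes of the spindle assembly checkpoint limma called 0 (3 at an unadjusted p under 0.05), and random decimals called 1 lower, with a list median of 0.07. Zw10, which brings dynein to kinetochores, had values of 24 and 26 in WT against 18 and 20 in Myh9 KO (log2 fold change -0.38 with SE 0.08, adjusted p = 0.103 by limma, and 0.0368 with random decimals). Mad2l1bp, whose product removes Mad2 from the checkpoint complex, had values of 27 and 29 in WT against 33 and 35 in Myh9 KO (log2 fold change 0.27 with SE 0.06, adjusted p = 0.103 by limma, and 0.0653 with random decimals).

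Of 18 APC/C subunits, coactivators, inhibitors and E2 enzymes, 1 fell by both fits and none rose, beside 5.81% and 5.15% of all tested genes. Counting that gene, limma called 2 lower and random decimals called 2 higher and 3 lower. The list median was -0.07. The scaffold subunit gene Anapc5 fell from 299 and 297 in WT to 263 and 264 in Myh9 KO (log2 fold change -0.18 with SE 0.01, adjusted p = 0.0143 by limma), a call that limma lost without any 1 library (0.0607 to 0.0717). Cdc23, another subunit gene, had values of 68 and 70 in WT against 60 and 60 in Myh9 KO and was called by limma (adjusted p = 0.0384) but not with random decimals (0.0654). Ube2c, the E2 enzyme that starts ubiquitin chains for the APC/C, had values of 617 and 633 and of 622 and 665. Fzr1, the coactivator that takes over after anaphase, had values of 134 and 143 and of 147 and 157.

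Of 11 tested cohesin subunits and regulators, 1 rose and none fell, beside 5.15% and 5.81% of all tested genes. The list median was 0.15. Counting the gene that rose, random decimals called 2 higher. Stag3, a cohesin subunit best known from meiosis, rose from 3 and 3 in WT to 7 and 7 in Myh9 KO (log2 fold change 1.00 with SE 0.02, adjusted p = 0.00182 by limma), and the equal whole numbers make this SE too small (adjusted p = 0.0072 with random decimals). Cdca5, the gene of sororin, which protects cohesin until mitosis, had values of 117 and 122 and of 114 and 118.

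Among 16 tested kinases, cyclins and phosphatases of mitotic entry and exit no gene was called by both fits, random decimals alone called 3 higher, and the list median was -0.07. Limma called 1 higher, Cdc14b, at 1 and 1 in WT against 2 and 2 in Myh9 KO (adjusted p = 0.00111), which random decimals did not call (0.22). Aurka and Ccnb2, the genes of Aurora A and cyclin B2, had values of 193 and 203 and of 144 and 151 in WT, then of 183 and 187 and of 170 and 171 in Myh9 KO. Random decimals called Ccnb2 higher (adjusted p = 0.0276) where limma did not (0.0615), and neither fit called Aurka (0.203 by limma).

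Among 16 tested kinetochore and passenger complex genes no gene was called by both fits and random decimals alone called 1 lower, with a list median of 0.06. Birc5, the gene of survivin, had values of 306 and 302 in WT against 329 and 332 in Myh9 KO, and limma called it (log2 fold change 0.12 with SE 0.01, adjusted p = 0.0385 by limma) where random decimals did not (0.0941). In 12 tested genes of the other G2 and M phase list limma called 0 (4 at an unadjusted p under 0.05), random decimals called 1 higher and 1 lower, and the list median was -0.15. Pbk, a mitotic kinase gene, had values of 24 and 29 in WT against 18 and 16 in Myh9 KO (log2 fold change -0.61 with SE 0.14, adjusted p = 0.107 by limma), and random decimals called it lower (adjusted p = 0.0108). Ccnf, the gene of cyclin F, had values of 194 and 198 and of 204 and 205 (adjusted p = 0.133 by limma, and 0.427 with random decimals).

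In the 16 tested regulators of G1 and S phase the list median was -0.04. By both fits 1 rose and 2 fell, beside 5.15% and 5.81% of all tested genes. Counting the genes of this list that rose or fell, random decimals called 2 higher and 3 lower. Ccnd3, the gene of cyclin D3, fell from 396 and 397 in WT to 239 and 255 in Myh9 KO (log2 fold change -0.68 with SE 0.04, adjusted p = 0.0164 by limma). Limma lost this call without WT 1 or WT 2, where the log2 fold change of Ccnd3 stayed at -0.68. It was -0.63 without Myh9 KO 1 and -0.73 without Myh9 KO 2. With random decimals and all libraries, Ccnd3 had an adjusted p of 8.63e-05. Ccne1, the gene of cyclin E1, rose from 224 and 229 in WT to 267 and 260 in Myh9 KO (log2 fold change 0.22 with SE 0.02, adjusted p = 0.0379 by limma), a call that limma lost without any 1 library (0.12 to 0.181). Cdk6, a cyclin D partner named after its values were seen, fell from 22 and 23 to 16 and 17 (adjusted p = 0.0412) and was likewise lost by limma without any 1 library (0.116 to 0.192). Rbl1 (4 and 4, then 3 and 3) and E2f2 (6 and 6, then 5 and 5) were called by limma but not with random decimals.

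**Figure D4:**
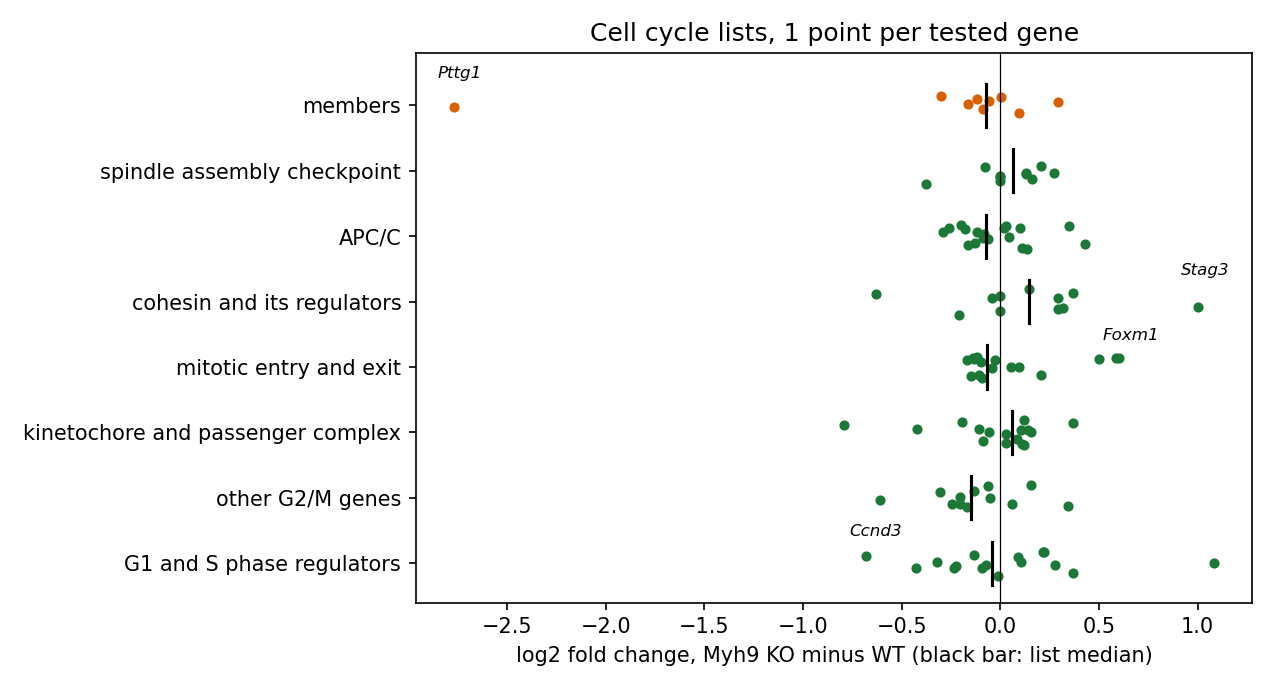
Log2 fold change between Myh9 KO and WT of each tested gene of the members and of the 7 cell cycle lists, with points shifted vertically at random for visibility and a black bar at each list's median (members without Pttg1). List medians lie between -0.15 and 0.15, and Pttg1 at -2.77 is far to the left of every other point.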

How the data were processed

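RNA was measured in 2 WT and 2 Myh9 KO libraries of OG2ES cells. The deposited table, which holds 1 whole-number value per gene and library, was treated as a score: a normalized unit that the authors reduced to whole numbers, judged from near-equal totals. Bowtie2 2.2.5, RSEM 1.3.0, bcl2fastq and the builds mm10 and hg38 appear per the submitters' processing notes, which give them no role. No step that marks the strand is described in the labels' protocols. Of 50600 identifiers 50376 were in GENCODE vM21 (GRCm38), 93.0% of them at the same coordinates. Printed gene positions are those of the deposited table, and that of Rad21 differs slightly from GENCODE.

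Genes whose mean value reached 1 were tested on log2(value + 1) with limma 3.58.1 and its variance trend in R 4.3.3, Myh9 KO against WT without a replicate block, with Benjamini-Hochberg adjustment over 11231 genes and a threshold of 0.05. The random decimals fit gives medians over 25 draws. Fold changes on this scale understate those of low genes. In a simulated table of whole numbers with known changes in a small share of genes, limma called more unchanged than changed genes. Calls by both fits were nearly all of changed genes but missed many. These shares depend on how many genes change and do not carry over to the deposited values. The depth is unknown, so no counting interval is given.

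The members and gene lists were chosen with earlier results of these data known. Named genes were the members, up to 4 called genes per list by smallest p (2 where none was called), Myh9, the genes beside Pttg1 and the 5 most like it; Ube2c, Fzr1, Cdca5, Aurka, Ccnb2 and Smc1a were added for their roles after values were seen. Alternatives varied the pseudocount, filter, trend, scaling, decimals, GC content, chromosome medians, block and libraries.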

Additional observations from a re-analysis of the deposited data

How the results depend on the processing

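The log2 fold change of Pttg1 ran from -2.96 to -2.55 over 19 alternatives, 4 of them (random decimals with 1 library left out) added after the data were seen. The number of other members called was 0 in the main test, 1 with random decimals, 2 with the GC content trend removed and 2 with this and the replicate block; it was 0 to 2 with a library left out. Espl1 and Plk1 lay so near 0 that their sign turned. With a library left out Espl1 ran from -0.00070 to 0.19 and Plk1 from -0.025 to 0.033. Plk1 was at -0.012 with quantile normalization, at -0.099 with the GC content trend removed, with or without the block, and with random decimals at -0.026 without WT 1 and -0.022 without Myh9 KO 2. Mad2l1 was at -0.16 with chromosome medians removed.

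Over all genes 805 were called higher and 894 lower. Random decimals called 1245 and 1355, removal of the GC content trend called 1347 lower, and the counts with a library left out ran from 591 to 1309 and from 685 to 1569. With the replicate block 10 and 44 were called, and none of the 8 tested members other than Pttg1. Same-numbered libraries deviated together at a correlation of 0.0407, so the numbers were not taken to pair the libraries. Of the genes of the 7 lists, 4 were called higher and 6 lower. The count called higher was 8 with a minimum mean of 5, 10 with quantile normalization, 10 with random decimals, 13 with the GC content trend removed, 11 with this and the block, 0 with the block alone and 8 with chromosome medians removed. The count called lower was 0 with the block and 3 with chromosome medians removed. With a library left out these counts ran from 3 to 12 and from 2 to 8. The cause of these moves was not tested. The unknown depth leaves genes with values of a few units, such as Stag3 and Cdc14b, least certain.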

Other observations

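Foxm1, which encodes a transcription factor known to drive G2 and M phase genes, had values of 38 and 41 in WT against 57 and 64 in Myh9 KO, with no overlap (log2 fold change 0.60 with SE 0.09, adjusted p = 0.0577 by limma, and 0.00201 with random decimals). It was singled out after its values were seen, and it lies on chromosome 6, whose tested genes had a median log2 fold change of 0.45. Ccnd1, the gene of cyclin D1, had values of 81 and 88 in WT against 100 and 105 in Myh9 KO (log2 fold change 0.28 with SE 0.06, adjusted p = 0.105 by limma, and 0.0217 with random decimals), while the related Ccnd3 fell. Anapc15, a small APC/C subunit that helps to turn over the checkpoint complex, had values of 119 and 111 in WT against 162 and 148 in Myh9 KO (log2 fold change 0.43 with SE 0.07, adjusted p = 0.0718 by limma, and 0.00299 with random decimals). Both of these were also picked after their values were seen.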
